A study of Xenopus tropicalis with 20 samples.

Results

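Livers of adult females of the western clawed frog, Xenopus tropicalis, from 2 successive generations of an exposed line were compared, 5 libraries of the second generation (F2 mixture) against 5 of the first (F1 mixture). These 10 libraries were chosen by their group label from a series of 20. The founders (F0) of the mixture line had been kept with triclosan, an antimicrobial agent, and benzo[a]pyrene, a hydrocarbon formed in combustion, at 50 ng/L from the tadpole stage to mature adulthood. Whether this was the level of each compound or of their sum is not stated, and the labels give no strain and no age beyond maturity. Neither F1 nor F2 females were exposed themselves. The other 10 libraries came from F1 and F2 females (5 each) of unexposed founders, whose sequencing data are shared with an earlier series, and they served as the reference for a change of generation without founder exposure. Replicates are called biological, but the animals, clutches and tanks behind them are not named, so a p-value measures the spread between these samples. The generations can also differ in birth date, housing, age, time of sampling and sequencing run, none of which is given, and these cannot be told apart from the generation.

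The liver stores glucose as glycogen, releases it in fasting and under glucagon and glucocorticoids, makes and exports lipids, secretes bile acids and plasma proteins, and oxidises foreign compounds. Benzo[a]pyrene is a classic ligand of the aryl hydrocarbon receptor, which drives cyp1a1, and triclosan is known in mammals to act on nuclear receptors of the liver. Glucose 6-phosphatase carries out the last step of glucose release, while glucokinase and glycogen synthase act on the opposite path, toward storage.

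RNA came from 15 mg of liver and was sequenced as poly(A)-selected, stranded libraries with 75 bp reads. Each library had a deposited table of FPKM per gene, a level scaled by transcript length and mapped fragments, and each table was divided here by a scaling factor (scaled FPKM). All changes are differences of log2(scaled FPKM + 1), ± SE, so they understate the change of genes at low levels, and every adjusted p is limma's with Benjamini-Hochberg adjustment over all genes tested. A gene is said to have risen or fallen only if that p lay under 0.05. Levels are mean ± SD over 5 libraries unless each library is given. The limits deposited with the values implied 9502300 to 16705000 fragments per mixture library, and 8466 to 10177 genes reached 1 FPKM. Markers of hepatocytes were abundant throughout, with a summed level of 6307 to 22890 scaled FPKM over 19 genes, while 11 oocyte markers summed to at most 5.98. In the pancreas list 6 of 16 markers (cela1.1, cela1.5, cela1.6, ctrb1, pnlip and sst.1) were listed at 0 in every mixture library. The 16 markers still summed to 1835 scaled FPKM in F1 mixture 8. The sum was 109 to 279 in F1 mixture 1, 4, 9 and 13 and 42.0 to 308 in the F2 mixture libraries. In whole tissue, fewer cells of a type and less RNA per cell cannot be told apart.

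Of the 10 libraries 3 stood apart. F2 mixture 2 had the lowest weight by limma's arrayWeights (0.288), the lowest hepatocyte markers (median -1.22 below each gene's mean over the 20 libraries, on the log2 scale) and the highest erythrocyte markers (1.47). F1 mixture 1 and F1 mixture 8 had weights of 0.447 and 0.555. By the same median they had the lowest ribosomal protein transcripts (-1.0 and -1.21), against -0.09 to 0.54 in the other F1 mixture libraries. Leaving them out was decided after the data had been seen, and it leaves 3 F1 and 4 F2 mixture libraries in the fit. All control libraries stayed in, among them F2 control 1 and F1 control 3, with weights of 0.532 and 0.566.

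Between F1 and F2 mixture livers 1450 of 10228 tested genes changed (14.2%), 620 upward (6.06%) and 830 downward (8.11%). The last 2 shares are the reference for each count by list in the mixture line below. Of the 1450 genes, 512 differed over 2-fold, 263 higher and 249 lower in F2. The median change over all genes was -0.04. The split between rises and falls moved with the scaling of the libraries. Without scaling 281 genes were higher and 1264 lower, with the median of all genes shifted by -0.17, with upper-quartile scaling 341 were higher and 1063 lower, and with quantile normalization 764 were higher and 749 lower. The count fell to 778 without F1 mixture 1, to 856 without F1 mixture 8, to 509 when only the 10 mixture libraries entered the fit, and to 386 (167 higher, 219 lower) without the 3 low-weight libraries. With the library number as a block over all 20 libraries (the replicate block) 198 genes were called, and with it among the F2 libraries only 1772, among them all 94 called genes named here. The block among the F2 libraries was chosen from correlations in these data. It left the estimates nearly unchanged (median shift 2.2e-05) and takes up spread shared by same-numbered F2 libraries. Calls kept with it are thus no independent support. The numbers of F1 mixture 8, 9 and 13 and F1 control 6 occur in no other group, so the replicate block fits these libraries exactly. Its F1 mixture estimate thus rests on F1 mixture 1 and 4.

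The same contrast in the unexposed line called 5722 genes (55.9%), 2804 higher (27.4%) and 2918 lower (28.5%) in F2 control livers. These 2 contrasts share no library, although same-numbered F2 libraries of the lines deviated together. Of the 1450 genes called in the mixture line 1008 were also called in the control line (69.5% of the mixture calls, 17.6% of the control calls), 966 in the same direction and 42 in the opposite one. Across all genes tested the 2 changes had the same sign for 70.9%, and Pearson's r was 0.56 over 10228 genes, which are not independent of each other. The median size of a change was 0.31 in the mixture line and 0.61 in the control line, at a median SE of 0.22 in both. The 4 groups of 5 libraries share 1 estimate of spread per gene, so the equal SE follows from the design. It does not show equal precision in the lines. Mean library weights were 0.99 and 0.82 in F1 and F2 mixture and 1.16 and 1.53 in F1 and F2 control libraries. Fitted alone, the mixture line gave 509 calls and the control line 5982. The difference between the lines, tested directly, was called for 2052 genes (20.1%), 974 more positive (9.52%) and 1078 more negative (10.5%) in the mixture line. It uses the libraries of both contrasts. With the replicate block 380 differences were called, and with the block among the F2 libraries only 2367. Among the 1450 mixture calls 251 (17.3%) differed between lines by this test, and 1728 of the 1801 other genes that differed were called in the control line.

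**Figure D1:**
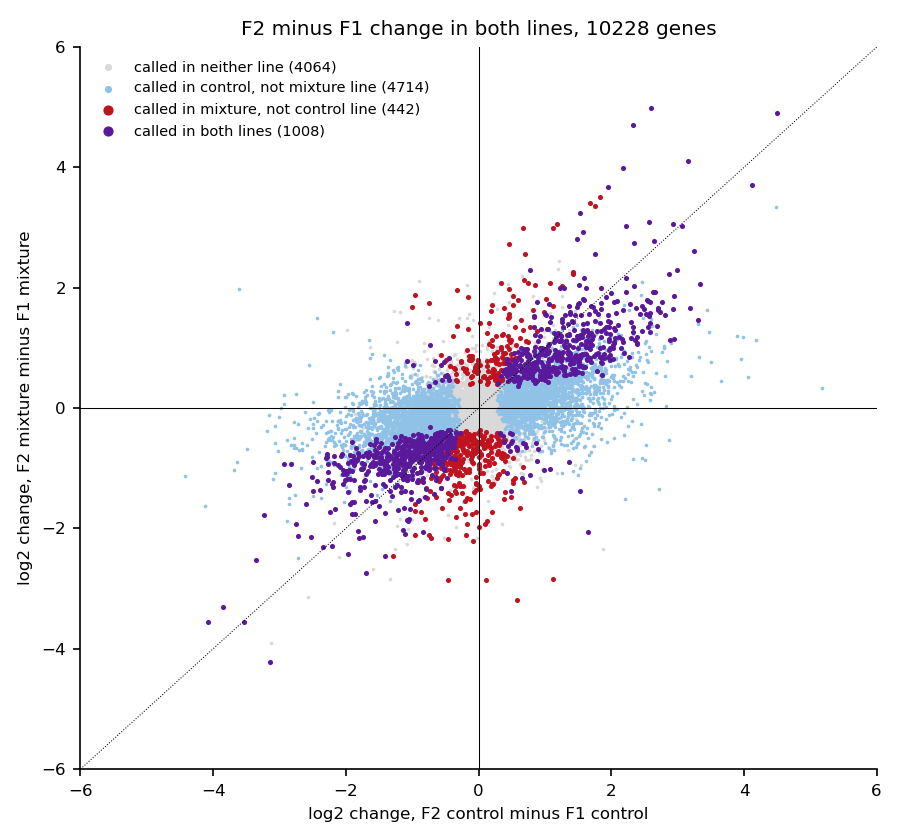
Change from F1 to F2 for 10228 genes, in log2(scaled FPKM + 1), in the control line (horizontal axis) and the mixture line (vertical axis), coloured by where the change was called. The 1008 genes called in both lines changed in the same direction in 966 cases (the dotted line marks equal change), and the cloud is wider along the control axis, where the median size of a change was 0.61 against 0.31.

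Genes of glucose release were among the largest rises in F2 mixture livers. The values of 5 libraries are given below in the order F1 mixture 1, 4, 8, 9 and 13, and F2 mixture 1 to 5. The gene g6pc.3 (chromosome 10, 21380275 to 21386672), a copy of the catalytic subunit of glucose 6-phosphatase, stood at 5.32, 21.6, 8.4, 9.51 and 30.6 scaled FPKM in F1 and 1696, 95.1, 371, 182 and 1265 in F2. Every F2 library lay above every F1 library, with F2 mixture 1 and 5 highest (log2 change 4.98 ± 0.99, adjusted p = 0.00422). Its neighbours g6pc.2 (chromosome 10, 21436368 to 21445526; 7.37 ± 5.16 to 241 ± 185 scaled FPKM; 4.71 ± 0.87, adjusted p = 0.00272) and g6pc.1 (chromosome 10, 21457994 to 21463115; 28.1 ± 15.2 to 678 ± 708; 3.99 ± 0.87, adjusted p = 0.00652) also rose without overlap between groups. Reads may be divided among these copies, so the share of each is uncertain.

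In the gluconeogenesis list 5 of 19 tested members rose and 1 fell, with a median change of 0.47, and in the control line 9 rose and 0 fell. Over all genes tested 6.06% rose and 8.11% fell in the mixture line, and 27.4% and 28.5% in the control line. The neighbouring g6pc copies, among which reads may be divided, count as separate members of this list. Without the low-weight libraries 4 rose and 1 fell. The forkhead factor foxo1, which insulin holds inactive in mammals, stood at 3.76, 4.53, 3.94, 4.75 and 4.05 scaled FPKM in F1 and 36.5, 6.11, 17.2, 15.4 and 9.57 in F2. The F2 libraries were all higher, with F2 mixture 2 lowest among them (log2 change 1.56 ± 0.35, adjusted p = 0.00833). The coactivator ppargc1a, named here after its values had been seen, rose from 0.408 ± 0.158 to 7.21 ± 7.13 scaled FPKM (2.02 ± 0.56, adjusted p = 0.0230). For pck1, phosphoenolpyruvate carboxykinase, the values were 0, 0.144, 0.226, 0.0449 and 0.069 scaled FPKM in F1 and 85.1, 0.244, 14.3, 1.46 and 0.861 in F2. Although all F2 values lay above all F1 values, only F2 mixture 1 and 3 exceeded 10, and the change did not pass (log2 change 2.45 ± 0.87, adjusted p = 0.0637). It passed in 6 of 32 alternatives, among them without F2 mixture 2 (0.0332), F2 mixture 5 (0.0419) or F2 control 1 (0.0461), and with the block among the F2 libraries (0.00191). The single fall was ugp2, which makes UDP-glucose for glycogen, from 31.01 ± 11.3 to 11.8 ± 1.46 scaled FPKM (-1.26 ± 0.23, adjusted p = 0.00272).

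In the glycogen list 4 of 11 tested members fell and 0 rose, where 8.11% of all genes fell and 6.06% rose. In the control line 4 members fell and 3 rose, where 28.5% and 27.4% of all genes did. Among them agl, the glycogen debranching enzyme (chromosome 4, 108486093 to 108539477), stood at 28.5, 22.3, 26.9, 12.7 and 13.1 scaled FPKM in F1 and 4.72, 3.45, 5.33, 5.75 and 8.8 in F2, with no overlap (log2 change -1.69 ± 0.28, adjusted p = 0.00174). The glycogen synthase gene gys1 was low, at 2.52 ± 0.671 scaled FPKM in F1 and 1.17 ± 0.24 in F2. It fell (-0.68 ± 0.15, adjusted p = 0.00655), as did ppp1r3c.1, a subunit that directs protein phosphatase to glycogen (37.99 ± 7.5 to 16.9 ± 2.65 scaled FPKM; -1.12 ± 0.28, adjusted p = 0.0129). In the control line agl (-1.22 ± 0.28, adjusted p = 0.00114) and gys1 (-0.69 ± 0.15, adjusted p = 0.000653) fell too. There ppp1r3c.1 rose (0.77 ± 0.28, adjusted p = 0.0229). Whether gys1, and pkm below, are the forms that act in hepatocytes was not tested. Without the 3 low-weight libraries 1 member, agl, kept its call, with adjusted p = 0.0897 for gys1 and 0.0744 for ppp1r3c.1. Glucokinase, gck, the first step of glucose use in hepatocytes, stood at 21.6, 16.4, 53.8, 20.6 and 20.2 scaled FPKM in F1 and 6.88, 1.57, 10, 8.9 and 6.6 in F2, with F1 mixture 8 far above the rest and F2 mixture 2 lowest (log2 change -1.84 ± 0.53, adjusted p = 0.0266). Pyruvate kinase pkm fell as well (-0.95 ± 0.27, adjusted p = 0.0255), whereas the bidirectional glucose carrier slc2a2 rose from 7.85 ± 3.36 to 103 ± 90.9 scaled FPKM (3.08 ± 0.60, adjusted p = 0.00376), with F2 mixture 2 within the F1 range. In the glycolysis list 2 of 27 tested members fell and 1 rose, a share of falls no higher than the 8.11% of all genes, and 0 fell without F1 mixture 1, F2 mixture 2 or the low-weight libraries. With the block among the F2 libraries 3 rose and 2 fell. In the control line pkm fell (-1.57 ± 0.27, adjusted p = 9.64e-05) and slc2a2 rose (2.58 ± 0.60, adjusted p = 0.00125). The change of gck did not pass there (-0.80 ± 0.53, adjusted p = 0.205).

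Several of these calls ended when a single library was left out, which also leaves fewer libraries in the fit. That of gck ended without F1 mixture 1 (adjusted p = 0.0518), F1 mixture 8 (0.0760) or F2 mixture 2 (0.0719). The log2 change of gck was then -1.88, -1.56 and -1.48, against -1.84 with all libraries. The call of pkm ended without F1 mixture 1 (0.0773), F1 mixture 13 (0.0598), F2 mixture 1 (0.0692) or F2 mixture 2 (0.0554), and that of ppargc1a without F2 mixture 1 (0.0640) or 3 (0.0520). Without F2 mixture 2, 7 members of the gluconeogenesis list rose, and without F2 mixture 1, 4 rose. The calls of g6pc.1, g6pc.2, g6pc.3, foxo1, ugp2, agl and slc2a2 held in all 33 alternatives other than the replicate block.

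The gene crem, a modulator of cAMP-responsive transcription (chromosome 6, 21622488 to 21642147), stood at 1.31, 1.53, 0.996, 0.684 and 1.24 scaled FPKM in F1 and 118, 11.3, 24.96, 25.5 and 15.5 in F2. F1 libraries were all under 2 and F2 libraries all above 11, with F2 mixture 1 far above the others (log2 change 3.71 ± 0.61, adjusted p = 0.00157). It rose in control livers as well (4.12 ± 0.61, adjusted p = 2.09e-05). For klf9, a Krüppel-like factor induced by thyroid hormone and glucocorticoids, the values were 0.917, 0.54, 0.71, 0.525 and 0.639 scaled FPKM in F1 and 245, 3.66, 16.2, 9.56 and 1.41 in F2, and the groups did not overlap (log2 change 3.05 ± 0.86, adjusted p = 0.0249). The glucocorticoid receptor gene nr3c1 rose from 6.43 ± 1.05 to 14.03 ± 3.38 scaled FPKM (1.0 ± 0.18, adjusted p = 0.00253; control line 0.95 ± 0.18, adjusted p = 0.000209). The call of klf9 ended with a pseudocount of 5 (0.0639), in the fit of the 10 mixture libraries alone (0.0734), with library weights (0.0559) and without the low-weight libraries (0.0782), while crem and nr3c1 kept theirs in all 33.

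In the insulin and IGF list 6 of 31 tested members rose and 1 fell (median 0.42), against 13 and 2 in the control line. The insulin receptor substrate irs4 stood at 3.43, 5.36, 1.34, 4.41 and 1.69 scaled FPKM in F1 and 15.2, 22.6, 10.5, 8.24 and 8.24 in F2, without overlap (log2 change 1.72 ± 0.29, adjusted p = 0.00188). The IGF-binding protein gene igfbp1, which insulin represses in mammals, stood at 3.77, 1.41, 0.922, 6.8 and 2.15 scaled FPKM in F1 and 259, 2.61, 162, 21.6 and 28.3 in F2. Its F2 values ran from an F1-like level in F2 mixture 2 to the highest in F2 mixture 1 (log2 change 3.5 ± 0.94, adjusted p = 0.0195), and the call ended without F1 mixture 8 (0.05) or F2 mixture 1 (0.0561) and in the fit of the 10 mixture libraries alone (0.0532). The growth hormone receptor gene ghr (0.53 ± 0.26, adjusted p = 0.164) and igf1, the growth factor made under it (0.26 ± 0.39, adjusted p = 0.696), did not pass. Both had risen in the control line (ghr 1.49 ± 0.26, adjusted p = 0.000101; igf1 2.58 ± 0.39, adjusted p = 3.0e-05). The count of rises in this list was 4 without F1 mixture 8 or F2 mixture 1 and 8 without F2 mixture 2, 2 in the fit of the 10 mixture libraries alone and 4 without the low-weight libraries.

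**Figure D2:**
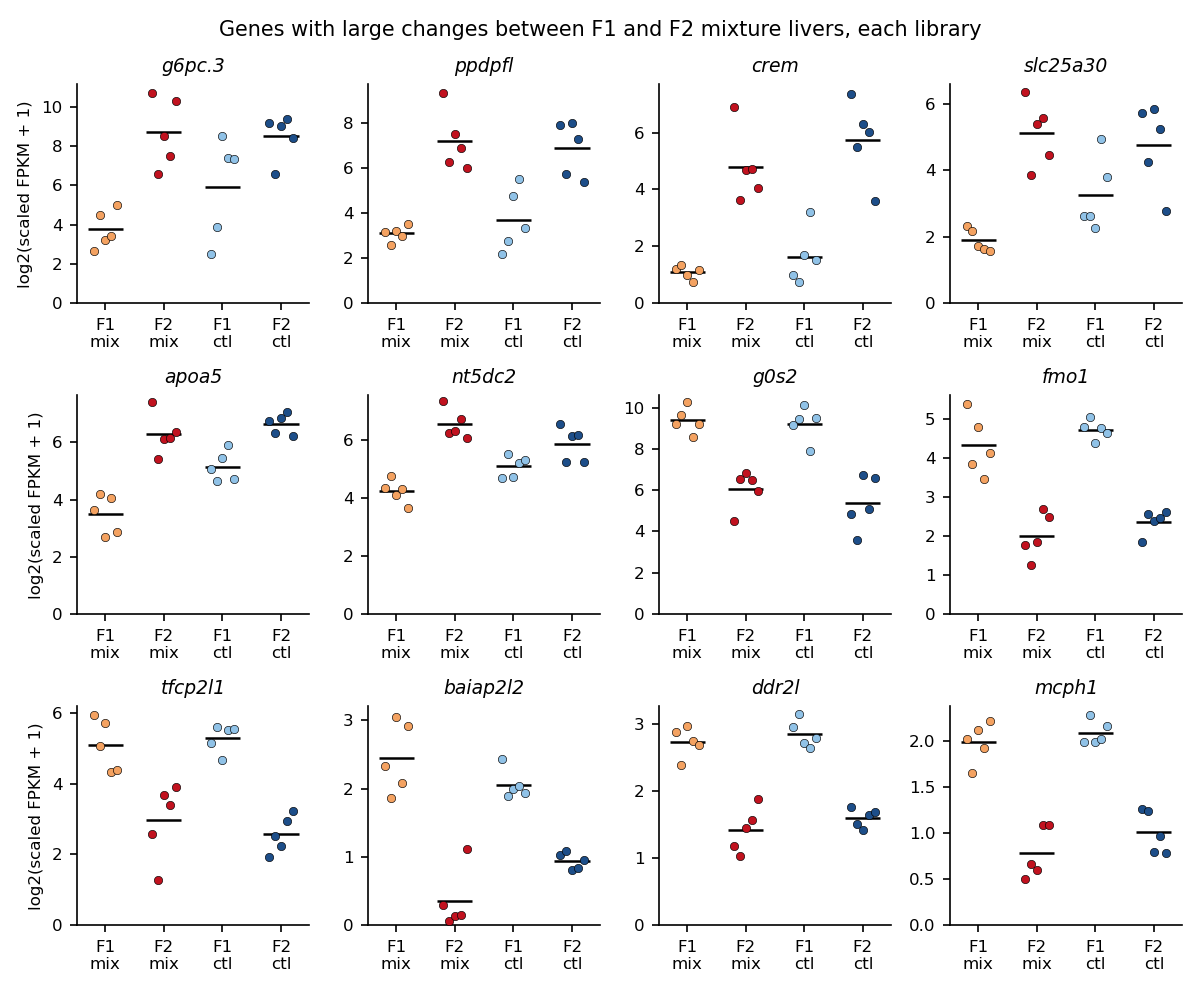
Level of 12 genes with large changes, in log2(scaled FPKM + 1), for each library of the F1 mixture, F2 mixture, F1 control and F2 control groups (points), with the group mean as a bar. In the mixture line the F1 and F2 points of each of these genes do not overlap, and F2 mixture 1 is the highest point of crem at 118 scaled FPKM.

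The largest other rises were in genes outside these lists. The gene ppdpfl (chromosome 6, 113612536 to 113618105) stood at 8.03, 4.93, 8.31, 6.86 and 10.4 scaled FPKM in F1 and 650.5, 75.1, 179, 119 and 63.7 in F2, and every F2 library exceeded every F1 library (log2 change 4.11 ± 0.66, adjusted p = 0.00151; control line 3.16 ± 0.66, adjusted p = 0.000543). For tnip2, a regulator of NF-kappaB signalling, the level rose from 3.42 ± 1.45 to 80.8 ± 72.4 scaled FPKM (3.67 ± 0.78, adjusted p = 0.00587). The mitochondrial carrier gene slc25a30 (chromosome 2, 133950033 to 133967291) stood at 4.01, 3.56, 2.32, 2.07 and 1.97 scaled FPKM in F1 and 80.9, 13.6, 41.2, 46.6 and 21.2 in F2. Its F1 values were all under 5 and its F2 values all above 13 (log2 change 3.25 ± 0.57, adjusted p = 0.00232). In the gene with the smallest p among the rises after apoa5, nt5dc2 (chromosome 8, 34805514 to 34840942), the values were 19.4, 25.99, 16.3, 18.5 and 11.5 scaled FPKM in F1 and 160.4, 73.7, 78.05, 104 and 64.8 in F2 (log2 change 2.3 ± 0.30, adjusted p = 0.000315). Its rise was larger than that in the control line (difference 1.52 ± 0.42, adjusted p = 0.0165). These 4 genes kept their calls in all 33 alternatives other than the block.

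Hepcidin, the hormone that limits iron release, has copies hamp and hamp2 next to each other on chromosome 7, between which reads may be divided. The values of hamp (122531462 to 122534197) were 113, 376, 393, 20.4 and 112 scaled FPKM in F1 and 3201, 412, 1795, 2024 and 1164 in F2, with F2 mixture 2 just above the highest F1 library (log2 change 3.41 ± 0.76, adjusted p = 0.00741). For hamp2 the groups overlapped and the rise (3.36 ± 0.98, adjusted p = 0.0278) was lost in 7 of 33 alternatives, among them without F1 mixture 1 (0.0815), 9 (0.0668) or 13 (0.0524) and without F2 mixture 1 (0.0716) or 3 (0.0608). The iron exporter gene slc40a1, the target of hepcidin, did not pass (-0.59 ± 0.22, adjusted p = 0.0785). In the iron and heme list hamp was the 1 member of 30 that passed. Among nutrient transporters 7 of 25 rose and 2 fell (median 0.68). They included the amino acid carrier slc38a2 (5.51 ± 0.893 to 28.1 ± 30.4 scaled FPKM; 1.7 ± 0.45, adjusted p = 0.0171), highest in F2 mixture 1, and the urate carrier slc2a9 (1.62 ± 0.44, adjusted p = 0.0212). The call of slc2a9 ended without F1 mixture 1 (0.0643) or 8 (0.0540), and the count of rises was 3 without F1 mixture 1 or the low-weight libraries and 4 without F1 mixture 8 or F2 mixture 1. In the iron and heme list 1 rose and 2 fell without the low-weight libraries, and 3 rose and 1 fell with the block among the F2 libraries.

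Single lipid genes rose or fell, while the lists of lipid genes held few calls. The apolipoprotein gene apoa5 (chromosome 7, 82275954 to 82292951), which promotes triglyceride clearance in mammals, stood at 11.5, 17.2, 5.41, 15.7 and 6.25 scaled FPKM in F1 and 169, 41.5, 68.9, 71.2 and 82.4 in F2. All F2 libraries lay above all F1 libraries, with F2 mixture 1 highest (log2 change 2.81 ± 0.35, adjusted p = 0.000266). The gene g0s2 (chromosome 2, 50712605 to 50714186), an inhibitor of the lipase that opens lipid droplets, stood at 593, 807, 1223, 379 and 586 scaled FPKM in F1 and 21.9, 93.8, 112, 88.1 and 60.8 in F2. It was lower in every F2 library, lowest in F2 mixture 1 (log2 change -3.31 ± 0.56, adjusted p = 0.00188), and fell in control livers as well (-3.85 ± 0.56, adjusted p = 1.75e-05). The acyl-CoA synthetase gene acsbg2, with 4 sound F1 values because the estimate in F1 mixture 9 failed, fell (-2.21 ± 0.52, adjusted p = 0.0108).

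Of 27 tested genes of fatty acid and triglyceride synthesis 3 fell and 1 rose. The desaturase fads2 fell from 53.2 ± 20.2 to 20.6 ± 5.6 scaled FPKM (-1.3 ± 0.35, adjusted p = 0.0187), and srebf1, the main transcription factor of the pathway, fell (-0.92 ± 0.29, adjusted p = 0.0393). Fatty acid synthase fasn (0.11 ± 0.82, adjusted p = 0.949) and stearoyl-CoA desaturase scd (1.14 ± 0.83, adjusted p = 0.369) did not pass, with overlapping values, and the sign for fasn turned in 5 alternatives. In fatty acid oxidation and ketogenesis 2 of 33 fell and 0 rose, among them ehhadh, a peroxisomal enzyme (36.4 ± 3.93 to 17.7 ± 4.1 scaled FPKM; -1.02 ± 0.19, adjusted p = 0.00294). In the list of lipoproteins and lipid droplets 3 of 28 rose and 3 fell, apoe among the latter (-0.83 ± 0.20, adjusted p = 0.0116). Over all genes tested 6.06% rose and 8.11% fell, and the few calls in these lists lay near those shares. Without the low-weight libraries the calls of fads2 (0.149) and apoe (0.0865) ended, and the synthesis list had 0 calls, the oxidation list 1 and the lipoprotein list 1. The synthesis list had 2 calls without F1 mixture 1, 8 or 13 or F2 mixture 2, and the lipoprotein list 2 without F1 mixture 1 and 3 without F1 mixture 8, 9 or 13 or F2 mixture 4. The call of srebf1 was the least stable of these, lost in 10 of 33 alternatives. It ended without F1 mixture 1 (0.0526), 8 (0.101) or 13 (0.0769) and without F2 mixture 2 (0.101), 3 (0.0658) or 5 (0.0571).

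Transcripts of both subunits of the basolateral bile acid exporter fell. Its subunit gene slc51b (chromosome 3, 116314035 to 116320977) stood at 38.5, 22.6, 116, 52.6 and 27.6 scaled FPKM in F1 and 3.83, 1.43, 14.1, 2.12 and 3.71 in F2. F2 mixture 3 was the highest of the F2 libraries and still below the lowest F1 library (log2 change -3.19 ± 0.54, adjusted p = 0.00200). The partner subunit slc51a stood at 132, 53.4, 133, 62.3 and 56.01 scaled FPKM in F1 and 17.4, 8.1, 62.3, 21.8 and 20.3 in F2, with F2 mixture 3 within the F1 range (log2 change -1.88 ± 0.47, adjusted p = 0.0136). The canalicular bile salt pump abcb11.2 fell from 40.3 ± 28.1 to 9.88 ± 5.31 scaled FPKM (-1.73 ± 0.47, adjusted p = 0.0212). Over the bile acid list 4 of 14 tested members fell and 0 rose, with a median of -0.35.

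In control livers slc51b ranged from 2.99 to 24.5 scaled FPKM in F1 and 6.5 to 30.2 in F2 and did not pass (0.58 ± 0.54, adjusted p = 0.369), and the difference between lines was -3.78 ± 0.77, adjusted p = 0.00308. The end of slc51b overlaps rasl12 by 1057 bp, and rasl12 fell too (-2.06 ± 0.29, adjusted p = 0.000804), so reads in the overlap could have been counted to either gene. The falls of slc51a and abcb11.2 did not pass without the low-weight libraries (0.218 and 0.326), and that of abcb11.2 not without F1 mixture 1 (0.0667), F1 mixture 8 (0.0564) or F2 mixture 2 (0.0537). The list counted 2 falls without F1 mixture 1, F1 mixture 8 or F2 mixture 2, with 2 rises in the last case, and 1 fall and 1 rise without the low-weight libraries. F2 mixture 2 had the lowest median of this list, at -1.35, beside its low hepatocyte markers, whose part in these falls was not tested.

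Of 43 tested genes of xenobiotic metabolism 8 fell and 0 rose, where 8.11% of all genes fell and 6.06% rose. The other 35 were not called, 14 of the 43 had a positive change, and the median was -0.32. The flavin monooxygenase gene fmo1 (chromosome 4, 107644910 to 107662049) stood at 40.8, 13.2, 26.5, 10.03 and 16.3 scaled FPKM in F1 and 2.38, 1.37, 2.58, 5.47 and 4.57 in F2. Every F2 library was lower than any F1 library, and F2 mixture 2 was lowest (log2 change -2.31 ± 0.31, adjusted p = 0.000459). In the control line fmo1 also fell (-2.35 ± 0.31, adjusted p = 7.34e-06). The cytochrome P450 gene cyp4f22 (-1.32 ± 0.28, adjusted p = 0.00566) and the pregnane X receptor gene nr1i2 (-0.79 ± 0.20, adjusted p = 0.0141) fell too. Both fell in control livers as well (cyp4f22 -1.78 ± 0.28, adjusted p = 3.62e-05, and nr1i2 -0.78 ± 0.20, adjusted p = 0.00258). In the control line 7 members rose and 10 fell. The count of falls was 5 without F1 mixture 1 or 8 and 4, with 1 rise, without the low-weight libraries, which ended the calls of cyp4f22 (0.0720) and nr1i2 (0.195).

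The founders' exposure makes the aryl hydrocarbon receptor of particular interest. Its best-known target cyp1a1 (chromosome 3, 94140137 to 94177848) stood at 88.9, 60.8, 63.3, 87.7 and 50.5 scaled FPKM in F1 and 47.01, 12.3, 60.2, 44.7 and 44.7 in F2. The F2 values were mostly lower but overlapped those of F1, and the change did not pass (log2 change -0.86 ± 0.33, adjusted p = 0.0775). It passed without scaling (0.0236) and with upper-quartile scaling (0.0420). The receptor gene ahr stood at 0.775, 1.64, 0.961, 1.74 and 1.07 scaled FPKM in F1 and 2.28, 4.28, 1.97, 1.84 and 1.84 in F2 and rose (log2 change 0.60 ± 0.17, adjusted p = 0.0232). That call ended without scaling (0.132), with upper-quartile scaling (0.0951) and without F1 mixture 1 (0.0695) or 8 (0.0578), and ahr had risen more in the control line (1.5 ± 0.17, adjusted p = 1.86e-06; difference -0.90 ± 0.24, adjusted p = 0.0130). The quinone reductase nqo1 fell (8.03 ± 2.91 to 4.04 ± 0.332 scaled FPKM; -0.80 ± 0.19, adjusted p = 0.0127), as in the control line (-0.82 ± 0.19, adjusted p = 0.00148). Among 9 tested genes of the receptor and its targets 2 rose and 2 fell. Without F1 mixture 1, 8 or 13 or without F2 mixture 2, 2 members in all passed, as without the low-weight libraries.

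The retinal dehydrogenase aldh1a1 (chromosome 1, 130668376 to 130700464), which makes retinoic acid, stood at 47.8, 61.6, 73.2, 57.7 and 87.7 scaled FPKM in F1 and 20.8, 7.71, 24.97, 13.9 and 19.8 in F2, with no overlap (log2 change -1.92 ± 0.30, adjusted p = 0.00139). It did not pass in the control line (0.10 ± 0.30, adjusted p = 0.797; difference -2.02 ± 0.42, adjusted p = 0.00385). The retinol dehydrogenase gene rdh11 fell from 15.1 ± 7.54 to 2.94 ± 2.51 scaled FPKM (-2.12 ± 0.49, adjusted p = 0.00985), and sex hormone-binding globulin, shbg, fell (-1.02 ± 0.26, adjusted p = 0.0141). Neither passed without the low-weight libraries (0.0964 and 0.117). Of 21 thyroid and retinoid genes 2 rose and 3 fell, 3 in all without F1 mixture 1 and 1 without the low-weight libraries. Of 16 genes of steroid metabolism 1 rose and 1 fell, with 0 falls without F1 mixture 1, 8 or 13, F2 mixture 1 or the low-weight libraries. Both lists held few calls, where 6.06% of all genes rose and 8.11% fell. The hydroxysteroid dehydrogenase hsd17b8 fell slightly (-0.58 ± 0.17, adjusted p = 0.0323) and rose in the control line (0.87 ± 0.17, adjusted p = 0.000378). Its fall was lost in 11 of 33 alternatives, among them without F1 mixture 1 (0.0722), 8 (0.0655) or 13 (0.0576) and without F2 mixture 1 (0.0664), 4 (0.0701) or 5 (0.0512), while the difference between lines (-1.45 ± 0.25, adjusted p = 0.00115) held in all 32.

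Of 17 tested clock genes 3 rose and 0 fell, where 6.06% of all genes rose and 8.11% fell. The repressors nr1d1 and nr1d2, nuclear receptors that hold down the activator arntl, both rose. The values of nr1d2 (chromosome 6, 46655840 to 46677657) were 4.09, 6.82, 5.06, 3.94 and 2.82 scaled FPKM in F1 and 11.1, 18.7, 14.3, 25.8 and 7.78 in F2, with every F2 library above every F1 library and F2 mixture 4 highest (log2 change 1.51 ± 0.28, adjusted p = 0.00270). F2 mixture 4 was also highest for nr1d1 (14.6 ± 3.76 to 49.4 ± 28.9 scaled FPKM; 1.55 ± 0.36, adjusted p = 0.00974; 0.0648 without the low-weight libraries) and for cry2, a repressor of the clock's activators, at 16.98, 16.8, 8.98, 7.55 and 14.4 scaled FPKM in F1 and 40.1, 45.4, 49.4, 89.2 and 16.9 in F2 (log2 change 1.71 ± 0.33, adjusted p = 0.00376). In cry2 only F2 mixture 5 lay within the F1 range.

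The other 14 did not pass. The activator arntl stood at 0.74 ± 0.27, adjusted p = 0.0715, and the period genes per1 and per2 at -0.05 ± 0.28, adjusted p = 0.923 and 0.56 ± 0.24, adjusted p = 0.109. The change of arntl passed in 5 of 33 alternatives, among them library weights (0.0348), without F2 mixture 2 (0.0252) or 5 (0.0351) and without the low-weight libraries (0.0246), and with the block among the F2 libraries (0.0490), as per2 did (0.0462). The count of rises was 5 without F2 mixture 2 or 5, with quantile normalization or with the erythrocyte covariate, 3 without the low-weight libraries and 7 with the block among the F2 libraries. In the control line per1 (-1.89 ± 0.28, adjusted p = 2.27e-05) and arntl (-1.11 ± 0.27, adjusted p = 0.00199) had fallen and 7 clock genes rose and 5 fell. Difference tests were called for 5 clock genes, all more positive in the mixture line, among them per1 (1.84 ± 0.40, adjusted p = 0.00438), arntl (1.85 ± 0.39, adjusted p = 0.00365) and cry2 (1.5 ± 0.47, adjusted p = 0.0301). The difference of cry2 was lost with the erythrocyte covariate (0.0597) and without F1 mixture 9 (0.0648), F2 mixture 4 (0.059), F1 control 1 (0.0524) or 6 (0.0525), or F2 control 2 (0.0522) or 5 (0.058). The hour of sampling is not given, and its part in these values was not tested.

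Transcripts of ribosomal proteins lay higher in F2, but the count of calls moved widely when single libraries were left out. Of 76 tested members 27 rose, 0 fell and 75 had a positive change, with a median of 1.12. In the control line 59 rose and 0 fell (median 1.53). The gene rpl14 (chromosome 6, 51231804 to 51238786) stood at 1594, 3634, 1046, 2737 and 3019 scaled FPKM in F1 and 9732, 5968, 9580, 4913 and 5865 in F2. F1 mixture 1 and 8 were lowest and F2 mixture 1 and 3 highest (log2 change 1.66 ± 0.39, adjusted p = 0.0104). For rpl18 the change was 1.7 ± 0.38, adjusted p = 0.00805, and for rps21 1.77 ± 0.47, adjusted p = 0.0182. Without F1 mixture 1 or F1 mixture 8, 2 members passed, without F2 mixture 1, 4, without F2 mixture 3, 8, without F1 mixture 13, 42, in the fit of the 10 mixture libraries alone, 3, and without the 3 low-weight libraries 0, with a median of 0.61. After quantile normalization 18 rose and 2 fell, with a median of 0.29. Neither rps21 nor rpl4 (1.67 ± 0.44, adjusted p = 0.0187) passed without F1 mixture 1 (0.0587 and 0.0588) or F1 mixture 8 (0.0539 and 0.0556). The slope of log2 level minus each gene's mean on log2 length was 0.087 in F1 mixture 1 and 0.069 in F1 mixture 8. It was -0.111 to -0.041 in the other F1 mixture libraries and -0.087 to 0.024 in the F2 mixture libraries. Length was inferred from the deposited limits. With this trend removed rpl14, rpl18, rps21 and rpl4 kept their calls. The part of the trend in the changes of this list was not tested.

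Translation factors followed the same libraries. Of 46 tested members 14 rose and 0 fell (median 0.57), with eif3d, a subunit of the factor that loads mRNA onto ribosomes, at 69.1, 114, 54.8, 90.6 and 139 scaled FPKM in F1 and 389, 296, 319, 172 and 266 in F2, without overlap (log2 change 1.64 ± 0.34, adjusted p = 0.00495). Its partners eif3h (1.14 ± 0.26, adjusted p = 0.00869) and eif3b (1.15 ± 0.31, adjusted p = 0.0194) rose as well. None of these 3 passed without the low-weight libraries (0.0782, 0.129 and 0.226). Without F1 mixture 8 or F2 mixture 1, 3 members passed, without F1 mixture 1, 5, without F2 mixture 3, 7, and without the low-weight libraries 0. The call of eif3b ended without F1 mixture 8 (0.0581) or F2 mixture 1 (0.0530).

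Of 25 heat shock genes 7 rose and 1 fell. The chaperone gene hsp90aa1.1 (chromosome 8, 97428241 to 97441508) stood at 6.79, 4.28, 12.6, 6.14 and 5.84 scaled FPKM in F1 and 77.3, 21.8, 22.1, 28.5 and 20.8 in F2, with every F2 library above F1 and F2 mixture 1 highest (log2 change 1.99 ± 0.35, adjusted p = 0.00244). It did not pass in the control line (0.46 ± 0.35, adjusted p = 0.275). The co-chaperone genes dnajb1 (1.05 ± 0.24, adjusted p = 0.00964) and dnaja1 (0.81 ± 0.20, adjusted p = 0.0127) rose, with adjusted p of 0.107 and 0.0744 without the low-weight libraries. Without F1 mixture 1, 3 members rose, and without the low-weight libraries 1. Among 43 lysosome and autophagy genes 9 rose and 2 fell. The autophagy kinase ulk1 (chromosome 1, 156622420 to 156675435) stood at 1.97, 3.94, 2.04, 3.16 and 1.29 scaled FPKM in F1 and 35.1, 17.5, 10.9, 8.97 and 4.34 in F2, without overlap and with F2 mixture 1 highest (log2 change 1.99 ± 0.37, adjusted p = 0.00272). The lysosomal membrane gene laptm4a (1.31 ± 0.29, adjusted p = 0.00674) and tsc1, a brake on mTORC1 (0.87 ± 0.19, adjusted p = 0.00816), rose, and the glycogen-cleaving lysosomal enzyme gaa fell (-1.0 ± 0.24, adjusted p = 0.0119), none of which passed without the low-weight libraries (0.0978, 0.121 and 0.176). Without F1 mixture 1, F1 mixture 8 or F2 mixture 1 the list had 5 rises, without F1 mixture 13, 7 calls in all, and without the low-weight libraries 1 rise and 1 fall.

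**Figure D3:**
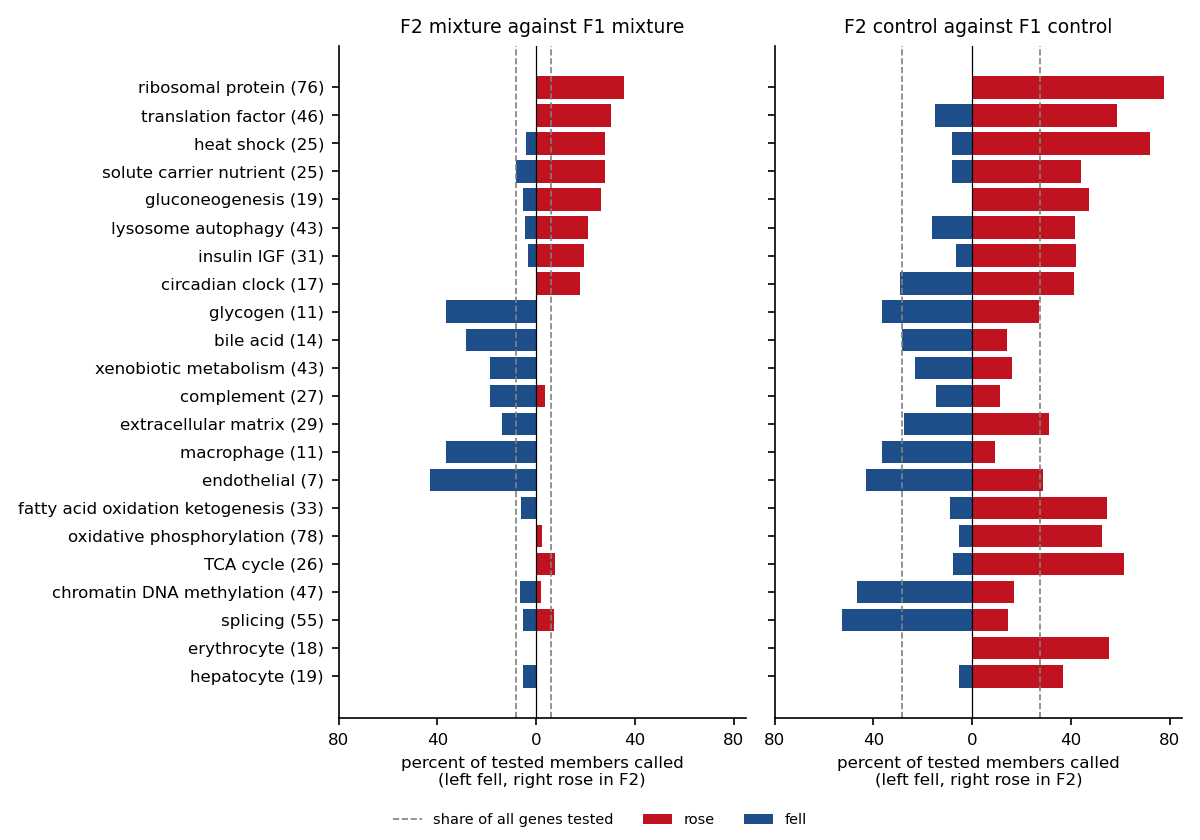
Share of the tested members of 22 gene lists (number tested in brackets) that rose (right) or fell (left) from F1 to F2, in percent, in the mixture line and in the control line. Dashed lines mark the share of all 10228 genes, 6.06% higher and 8.11% lower in the mixture line and 27.4% and 28.5% in the control line.

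Markers of other liver cells were measured in the same libraries. Of 11 tested macrophage markers 4 fell and 0 rose, with a median of -0.76, and of 7 endothelial markers 3 fell and 0 rose, with a median of -0.49. Without the low-weight libraries 4 and 2 fell. The mannose receptor mrc1 (chromosome 6, 28302901 to 28351067) stood at 22.6, 22.8, 28.2, 25.1 and 17.4 scaled FPKM in F1 and 10.5, 8.4, 9.63, 7.92 and 10.1 in F2, and the F1 values were all above the F2 values (log2 change -1.22 ± 0.21, adjusted p = 0.00229). The scavenger receptor stab1 (chromosome 4, 153779513 to 153933190), of sinusoidal endothelium and macrophages, stood at 72.97, 62.8, 47.2, 48.8 and 42.7 scaled FPKM in F1 and 22.2, 11.8, 32.3, 22.6 and 25.6 in F2, again without overlap (log2 change -1.26 ± 0.24, adjusted p = 0.00331). Its relative stab2 (-1.0 ± 0.21, adjusted p = 0.00610) and the macrophage factor irf8 (-1.11 ± 0.20, adjusted p = 0.00253) fell and kept their calls in all alternatives other than the block, as mrc1 and stab1 did.

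The leukocyte gene ptprc (-0.83 ± 0.20, adjusted p = 0.0129), the oxidase subunit cybb (-1.38 ± 0.39, adjusted p = 0.0244), the endothelial cadherin cdh5 (-0.44 ± 0.14, adjusted p = 0.0482) and the antibody chain gene jchain (-1.52 ± 0.27, adjusted p = 0.00244) fell. That of ptprc did not pass without the low-weight libraries (0.0841). The call of cybb ended without F1 mixture 1 (0.0612), F1 mixture 9 (0.0584) or F2 mixture 2 (0.0554), and that of cdh5 in 23 of 32 alternatives (adjusted p up to 0.137). In the control line 4 macrophage markers fell and 1 rose, and 3 endothelial markers fell and 2 rose, with mrc1 at -0.93 ± 0.21, adjusted p = 0.00114 and stab1 at -2.2 ± 0.24, adjusted p = 1.54e-06.

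The summed level of the 13 endothelial markers was 81.7 to 124.7 scaled FPKM in F1 mixture and 35.6 to 70.2 in F2 mixture livers (exact permutation test, two-sided, p = 0.00794, the smallest that 5 against 5 allows, 0.103 adjusted over 13 lists). The 14 macrophage markers summed to 151 to 360 and 103 to 170 (exact permutation p = 0.0238, 0.155 adjusted). Neither sum passed after adjustment. The sums of the 19 hepatocyte markers (10340 to 22890 and 6307 to 21550, exact permutation p = 0.294) and of the 19 erythrocyte markers (5825 to 79180 and 5975 to 63040, exact permutation p = 0.635) overlapped widely. Only 4 of 19 tested hepatocyte markers had a positive change, with a median of -0.32, below the -0.04 of all genes. The xenobiotic and bile acid lists had medians of -0.32 and -0.35, whose link to the hepatocyte markers was not tested. Among hepatocyte markers 1 of 19 fell, the liver transcription factor hnf4a (7.94 ± 1.19 to 4.36 ± 1.45 scaled FPKM; -0.78 ± 0.20, adjusted p = 0.0153), which did not pass without the low-weight libraries (0.104), and of 18 erythrocyte markers 0 passed (median 0.26). Without those libraries 0 hepatocyte markers passed and 3 erythrocyte markers fell (median -0.58), and with the block among the F2 libraries 1 hepatocyte marker rose and 2 fell. With the erythrocyte mean as a covariate 1650 genes were called.

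Of 27 complement genes 5 fell and 1 rose (median -0.59), with clu, clusterin, at 5.03, 7.39, 7.99, 22.4 and 9.94 scaled FPKM in F1 and 1.17, 1.19, 2.46, 2.17 and 2.29 in F2 and no overlap (log2 change -1.88 ± 0.37, adjusted p = 0.00376). The terminal component c6.1 fell (-1.72 ± 0.37, adjusted p = 0.00639), with F1 mixture 8 highest. Of 26 coagulation genes 2 fell, near the share of all genes, among them f13a1, the A chain of factor XIII (-0.92 ± 0.19, adjusted p = 0.00456). The interleukin 6 receptor gene il6r stood at 15.9, 9.58, 17.7, 16.98 and 9.84 scaled FPKM in F1 and 7.76, 4.18, 5.37, 5.48 and 4.01 in F2 (log2 change -1.22 ± 0.20, adjusted p = 0.00151), without overlap. In the complement list 3 members in all passed without F1 mixture 8, F1 mixture 9 or F2 mixture 2, 8 fell without F2 mixture 1, and 2 fell and 0 rose without the low-weight libraries. In the coagulation list 1 fell without F1 mixture 1, 8, 9 or 13, F2 mixture 2 or 5 or the low-weight libraries, 3 without F1 mixture 4 or F2 mixture 1, and 5 to 7 with the other scalings. The call of c6.1 ended without the low-weight libraries (0.0598), and those of clu, f13a1 and il6r held.

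**Figure D4:**
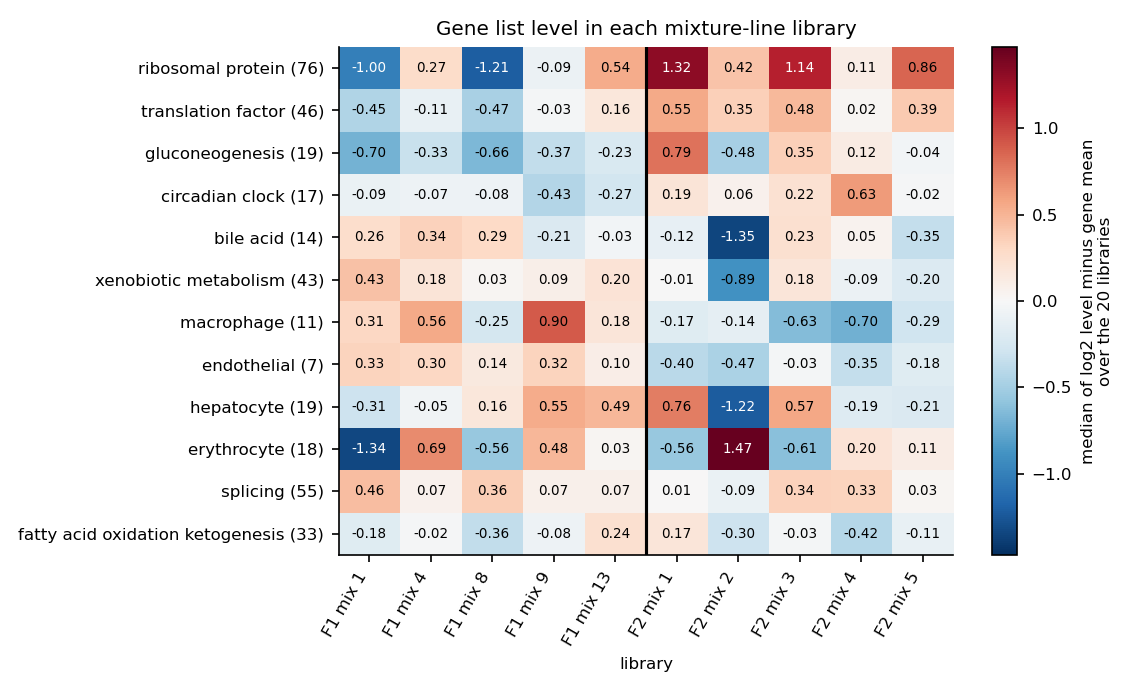
Median level of 12 gene lists in each of the 10 mixture libraries, as log2(scaled FPKM + 1) minus each gene's mean over the 20 libraries, with the value printed in each cell. F2 mixture 2 has the lowest hepatocyte (-1.22) and bile acid (-1.35) and the highest erythrocyte (1.47) cells, and F1 mixture 1 and 8 the lowest ribosomal protein cells (-1.0 and -1.21).

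The gene with the smallest p among the falls, baiap2l2 (chromosome 4, 122215677 to 122237746), which shapes membranes at cell contacts, stood at 4.03, 2.65, 7.3, 3.25 and 6.55 scaled FPKM in F1 and 0.227, 0.0409, 0.0993, 0.111 and 1.18 in F2. All F1 values exceeded 2 and all F2 values were under 2 (log2 change -2.1 ± 0.22, adjusted p = 6.48e-05). The ephrin receptor gene epha2 (chromosome 7, 131376390 to 131412012) stood at 12.1, 7.28, 18.4, 8.93 and 7.75 scaled FPKM in F1 and 1.01, 0.799, 1.79, 1.49 and 2.87 in F2, with no overlap (log2 change -2.18 ± 0.27, adjusted p = 0.000266), and did not pass in the control line, where F1 values were 1.8 to 4.76 and F2 values 0.806 to 2.9 (-0.47 ± 0.27, adjusted p = 0.151; difference -1.71 ± 0.39, adjusted p = 0.00587). The transcription factor gene tfcp2l1 (chromosome 9, 89371841 to 89396500) stood at 60.9, 32.6, 51.4, 19.1 and 19.99 scaled FPKM in F1 and 4.92, 1.42, 11.8, 9.45 and 14.1 in F2 (log2 change -2.13 ± 0.42, adjusted p = 0.00438).

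The fall of tfcp2l1 stood beside one in the control line (-2.72 ± 0.42, adjusted p = 3.56e-05) and did not pass without the low-weight libraries (0.0606). The collagen receptor-like gene ddr2l (chromosome 8, 1910112 to 1984761; 5.71 ± 0.991 to 1.73 ± 0.639 scaled FPKM; -1.31 ± 0.16, adjusted p = 0.000266), whose locus overlaps ier3 by 1267 bp, and mcph1, a regulator of chromosome condensation (3.01 ± 0.575 to 0.752 ± 0.345; -1.2 ± 0.15, adjusted p = 0.000266), fell in both lines (control line -1.25 ± 0.16, adjusted p = 5.26e-06 and -1.09 ± 0.15, adjusted p = 1.1e-05). The elastic fibre glycoprotein gene emilin1 fell (-1.41 ± 0.26, adjusted p = 0.00272), as 1 of 4 falls among 29 matrix genes, 2 without F1 mixture 1 or F2 mixture 2 and 1 without the low-weight libraries.

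Some of the largest falls by size had scattered values, while the values of g0s2 and slc51b, given above, did not overlap between groups. The class III myosin gene myo3b (chromosome 9, 68115292 to 68197838) stood at 82.9, 56.1, 46.97, 18.7 and 0.28 scaled FPKM in F1 and 0.221, 0.126, 0.1, 0.385 and 0.256 in F2, where F1 mixture 13 was within the F2 range while the other F1 libraries were above 18 (log2 change -4.21 ± 0.96, adjusted p = 0.00869). The cohesion factor gene dscc1 stood at 11.4, 5.09, 8.4, 6.36 and 8.47 scaled FPKM in F1 and 2.75, 0.286, 0.337, 0.0477 and 0.479 in F2 (log2 change -2.46 ± 0.60, adjusted p = 0.0127), without overlap. The serine protease gene tmprss2.5 stood at 17.1, 8.29, 35.8, 10.2 and 5.56 scaled FPKM in F1 and 0.247, 0.483, 5.7, 1.41 and 2.48 in F2, with F2 mixture 3 above the lowest F1 library (log2 change -2.42 ± 0.57, adjusted p = 0.0100). Without the low-weight libraries the adjusted p was 0.120 for myo3b, 0.120 for dscc1 and 0.159 for tmprss2.5. For pigb, a mannosyltransferase of GPI anchor synthesis, F1 mixture livers stood at 12.7, 6.64, 9.7, 6.09 and 4.79 scaled FPKM. In F2 mixture 1 to 4 it was listed at 0 and in F2 mixture 5 at 6.41. A listed 0 can be a failed estimate. The authors' deposited tables, each scaled on its own, gave pigb a mean of 9.91 FPKM in F1 mixture and 5.68 FPKM in F2 mixture livers. That F2 mean does not match 4 libraries listed at 0, so the fall of pigb, counted among the called genes named here, is in doubt.

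Of 13 tested cell cycle genes 3 fell and 1 rose. The replication helicase subunit mcm7 (12.3 ± 1.95 to 6.68 ± 0.647 scaled FPKM; -0.78 ± 0.13, adjusted p = 0.00204), whose locus overlaps ap4m1 by 475 bp, and the mitotic kinase cdk1 (-1.19 ± 0.21, adjusted p = 0.00221) fell. The centromeric histone cenpa rose (2.35 ± 0.673 to 9.75 ± 4.88 scaled FPKM; 1.56 ± 0.28, adjusted p = 0.00232). All 3 changed the same way in the control line (mcm7 -1.66 ± 0.13, adjusted p = 1.54e-07; cdk1 -0.91 ± 0.21, adjusted p = 0.00104; cenpa 0.99 ± 0.28, adjusted p = 0.00477). Without the low-weight libraries 1 cell cycle gene rose and 2 fell. In the list of chromatin and DNA methylation 1 of 47 rose and 3 fell, a share below that of all genes. The histone deacetylase hdac4 rose (0.71 ± 0.20, adjusted p = 0.0244), and the remodeler smarca4 (-0.56 ± 0.15, adjusted p = 0.0169), the DNA methyltransferase dnmt3a (-0.53 ± 0.16, adjusted p = 0.0280) and the histone methyltransferase ezh2 (-0.64 ± 0.19, adjusted p = 0.0327) fell.

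None of these 4 calls held throughout, and the list had 2 calls without F1 mixture 8, F2 mixture 1 or F2 mixture 2 and 1 without the low-weight libraries. That of hdac4 ended without F1 mixture 13 (0.0520), F2 mixture 1 (0.0650) or F2 mixture 4 (0.0558), and that of dnmt3a without F1 mixture 1 (0.0834) or 8 (0.0725) or F2 mixture 1 (0.0575) or 2 (0.0646). That of ezh2 ended without F1 mixture 1 (0.0813), 8 (0.0686) or 9 (0.0776) or F2 mixture 2 (0.0797) or 4 (0.0501), and that of smarca4 without the low-weight libraries (0.0788). Among 55 splicing genes 4 rose and 3 fell, near the 6.06% and 8.11% of all genes. One of the rises was hnrnpu, which binds nascent transcripts, at 19.7 ± 0.994 to 35.7 ± 4.7 scaled FPKM (0.82 ± 0.15, adjusted p = 0.00253). The list counted 1 rise and 0 falls without F1 mixture 1 or the low-weight libraries, 2 calls without F1 mixture 8, 3 without F2 mixture 1 or 2 and 4 without F2 mixture 3, and hnrnpu kept its call in each.

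Most genes whose change of generation differed between lines were called in the control line and not in the mixture line. The smallest p of the difference belonged to il13ra1, a receptor chain of interleukin 13, at 0.04 ± 0.16, adjusted p = 0.902 in the mixture line, 2.04 ± 0.16, adjusted p = 1.36e-07 in the control line, and a difference of -2.0 ± 0.22, adjusted p = 6.67e-05. It was followed by adtrp, a hydrolase of fatty acid esters (difference -2.56 ± 0.30, adjusted p = 8.34e-05), magt1, a magnesium transporter and subunit of the oligosaccharyltransferase (-2.07 ± 0.24, adjusted p = 8.34e-05), mpp1 (-2.54 ± 0.30, adjusted p = 9.18e-05) and gipc2 (-1.76 ± 0.22, adjusted p = 0.000125). Of these 5 genes only gipc2 changed in the mixture line, where it fell (-0.88 ± 0.16, adjusted p = 0.00234). The peptide hormone gene apln stood at 1.42, 3.72, 4.16, 4.25 and 3.004 scaled FPKM in F1 and 3.36, 0.88, 1.52, 0.747 and 3.17 in F2 (log2 change -0.61 ± 0.30, adjusted p = 0.172), against a rise in control livers (2.52 ± 0.30, adjusted p = 3.22e-06; difference -3.13 ± 0.43, adjusted p = 0.000235). The iron exporter slc40a1 differed likewise (control line 1.48 ± 0.22, adjusted p = 2.72e-05; difference -2.07 ± 0.32, adjusted p = 0.000424), as did igf1 (difference -2.32 ± 0.56, adjusted p = 0.00819). These 8 differences held in every alternative other than the replicate block, with which that of igf1 was lost (0.0966) and the other 7 held.

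A smaller set fell in the mixture line and differed by the direct test. Besides slc51b, aldh1a1 and epha2 it held ugp2 (difference -1.47 ± 0.33, adjusted p = 0.00560), ppp1r3c.1 (control line 0.77 ± 0.28, adjusted p = 0.0229; difference -1.89 ± 0.39, adjusted p = 0.00352), apoe (-1.04 ± 0.28, adjusted p = 0.0155), f13a1 (-1.14 ± 0.26, adjusted p = 0.00651), c6.1 (-1.92 ± 0.53, adjusted p = 0.0161), hnf4a (-0.92 ± 0.28, adjusted p = 0.0271) and cdh5 (-0.94 ± 0.20, adjusted p = 0.00460). In the other direction stood hsp90aa1.1 (1.52 ± 0.50, adjusted p = 0.0376), tsc1 (0.98 ± 0.28, adjusted p = 0.0181) and mcm7, which fell less than in the control line (0.88 ± 0.19, adjusted p = 0.00429). The difference of hnf4a was lost without scaling (0.0624) and without F1 mixture 13 (0.0534), F1 control 1 (0.0522) or F2 control 5 (0.0529), and that of tsc1 with upper-quartile scaling (0.0661) and without the low-weight libraries (0.0513). That of hsp90aa1.1 was lost in 12 of 32 alternatives, among them without F1 mixture 4 (0.0702), 9 (0.0655) or 13 (0.0634), F2 mixture 1 (0.0525) or 4 (0.0585), F1 control 1 (0.0621), 4 (0.0689) or 6 (0.0518), or F2 control 2 (0.0704) or 5 (0.0728). With the replicate block 16 of the 35 named differences kept their call, among them those of slc51a, slc51b, apoe, ppp1r3c.1, per1, arntl, hsp90aa1.1, epha2 and hsd17b8. Lost were those of ugp2 (0.0853), aldh1a1 (0.0557), c6.1 (0.231), f13a1 (0.0875), cdh5 (0.0620), hnf4a (0.196), tsc1 (0.118), mcm7 (0.0816), cry2 (0.192), ahr (0.0570), nt5dc2 (0.136) and rasl12 (0.0767), and those of acsbg2, cyp1a1, eif3b, il6r, baiap2l2 and emilin1. With the block among the F2 libraries 34 of the 35 held, and emilin1 was lost (0.0643). The difference of slc51a (-2.0 ± 0.66, adjusted p = 0.0391), kept with both blocks, was lost in 15 of 32 other alternatives, among them without the low-weight libraries (0.15). For g6pc.3 (2.38 ± 1.4, adjusted p = 0.229) and crem (-0.42 ± 0.86, adjusted p = 0.762) the difference did not pass, at the large SE given with each.

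By list, the difference test called members mainly where the control line had moved. In the control line 27.4% of all genes rose and 28.5% fell. The difference test called 10.5% of all genes as more negative and 9.52% as more positive in the mixture line. It called 13 of 33 genes of fatty acid oxidation and ketogenesis, all more negative in the mixture line, where 0 rose and 2 fell while 18 rose and 3 fell in the control line. For oxidative phosphorylation 14 of 78 were more negative and 1 more positive (mixture line 2 rose, 0 fell, control line 41 rose, 4 fell). These 15 calls lay near the 20.1% of all genes called in either direction. In the tricarboxylic acid cycle 9 of 26 were more negative (2 and 0 against 16 and 2). Of 55 splicing genes 21 were more positive and 4 more negative, and 29 had fallen in the control line. In the chromatin list 14 of 47 were more positive, with 22 falls in the control line. Coagulation had 9 of 26 more negative and the hepatocyte markers 7 of 19. Control reads came from an earlier series, so any batch between the lines cannot be told apart from the line, and the erythrocyte markers rose in 10 of 18 cases in the control line against 0 in the mixture line. With the erythrocyte mean as a covariate the difference was called for 1365 genes in place of 2052. Without the 3 low-weight libraries, all of the mixture line, it was called for 3845.

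**Figure D5:**
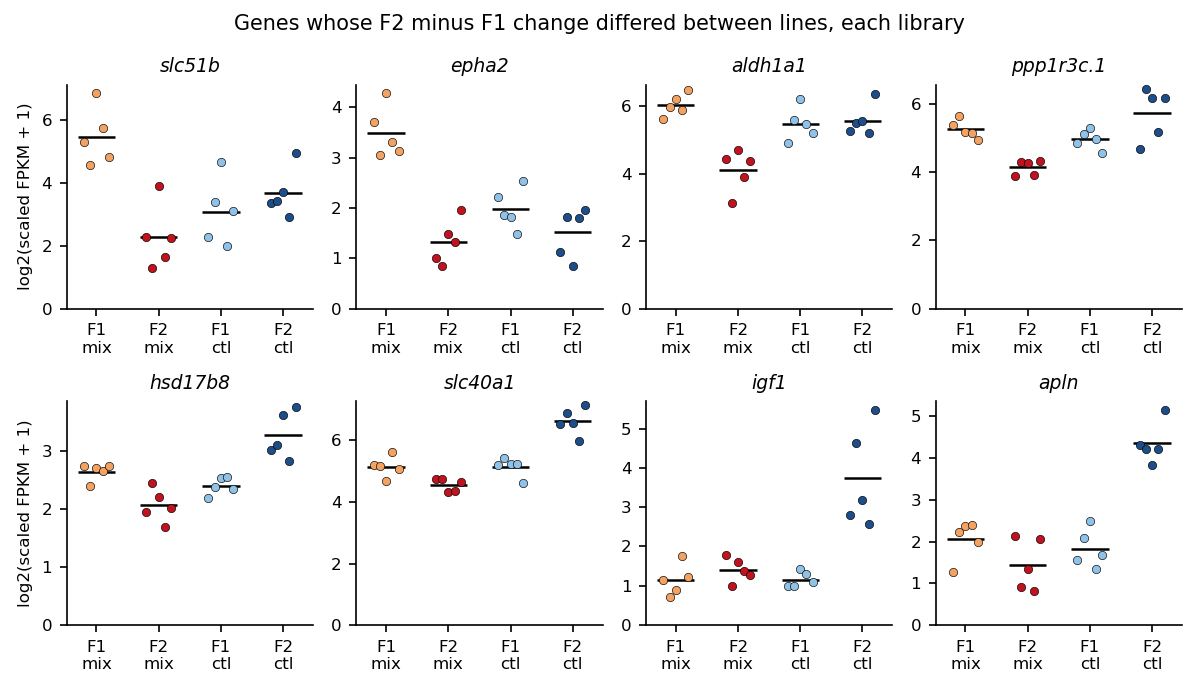
Level of 8 genes whose change from F1 to F2 differed between lines, in log2(scaled FPKM + 1), for each library of the F1 mixture, F2 mixture, F1 control and F2 control groups (points), with the group mean as a bar. In slc51b, epha2 and aldh1a1 all F2 mixture points are lower than all F1 mixture points, and in apln, igf1 and slc40a1 all F2 control points stand above those of the other groups.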

How the data were processed

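Liver RNA of 20 Xenopus tropicalis females in 4 groups was analysed. Per the submitters' processing notes, Trimmomatic 0.32.1, HISAT2, Cufflinks 0.0.7 and Cuffdiff 0.0.7 were used; roles, settings and the genome build are not given in the sources used here, nor whether strand was used in counting. The authors deposited FPKM per gene for each library, without counts. Values marked as sound were joined by gene symbol, with 20372 named genes per library, and lines without a name (0.000624% to 0.00856% of FPKM) were left out. Coordinates are those of the deposited tables. Libraries were scaled by the median ratio over 6971 genes. Genes with a mean of at least 1 FPKM over the 20 libraries and at least 3 sound values per group entered limma 3.58.1 (R 4.3.3; trend, two-sided) on log2 values computed from the deposited FPKM with a pseudocount of 1, with 4 group means fitted over all 20 libraries and 3 contrasts. The implied fragments, derived from the deposited limits taken as 2 Poisson SD, gave a median half-width of 7.92% to 10.4% at 5 to 20 FPKM in mixture libraries, for counting error only. The members, the 52 gene lists and the tests were chosen with earlier results of these data known. Named genes were the 12 largest called changes in each direction, the 6 smallest p-values, up to 4 called members per list, a short set of named genes of interest, and the 5 smallest p-values of the difference between lines, with exceptions stated. Genes with only a LOC identifier, 168 of the 1450 mixture calls, were left out of this naming and of the rankings by size or p. The labels do not say what a library number marks. Same-numbered F2 mixture and F2 control libraries deviated together (correlation 0.104 to 0.385 over 5 pairs, all above 0.1). Of the same-numbered pairs with an F1 library, F2 mixture 4 and F1 control 4 correlated at 0.208, and the others at -0.274 to 0.0798. Whether the numbers mark pairs was not tested. From the F2 correlations, and not from the labels, the number was added as a block among the F2 libraries, an alternative chosen after the data had been seen. Other scalings, pseudocounts of 0.1 and 5, filters, weights, covariates and left-out libraries were tried, and the fit was tested on simulated data. A gene that the naming rule selected is not reported here.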

Additional observations from a re-analysis of the deposited data

Results flagged for a closer look

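Among 220 groups of 5 libraries tested with Dixon's criterion, 22 had a library far from the others, in each case the highest of its group. The criterion's rate of about 1 in 20 by chance holds for independent, normally distributed values. These were scaled FPKM without the log2 step, of genes named partly for large changes, so the 22 cannot be weighed against that rate. F2 mixture 1 stood apart in pck1 (85.1 scaled FPKM), ghr (3.68), crem (118), klf9 (245), ppdpfl (650.5), slc38a2 (81.8), hsp90aa1.1 (77.3), dscc1 (2.75) and il13ra1 (1.96). F2 mixture 2 stood apart in ahr (4.28) and irf8 (3.02), F2 mixture 3 in slc51a (62.3) and slc51b (14.1), and F2 mixture 5 in pigb (6.41) and baiap2l2 (1.18). In the F1 group, F1 mixture 8 stood apart in gck (53.8), c6.1 (44.6), rasl12 (22.2) and smarca4 (2.94), F1 mixture 4 in stab2 (20.2), F1 mixture 9 in clu (22.4) and F1 mixture 13 in nqo1 (13.2).

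The change from F1 to F2 differed between the mixture and control lines, by limma's direct test, for 35 named genes, given here as the mixture change minus the control change on the log2 scale. In glucose, insulin and lipid genes it was -1.47 for ugp2, -1.89 for ppp1r3c.1, -2.32 for igf1, -2.13 for acsbg2 and -1.04 for apoe. For bile acid, xenobiotic, retinoid and steroid genes it was -2.0 for slc51a, -3.78 for slc51b, -1.43 for cyp1a1, -0.90 for ahr, -2.02 for aldh1a1 and -1.45 for hsd17b8. Clock genes had positive differences, of 1.5 for cry2, 1.84 for per1 and 1.85 for arntl. In genes of translation, stress, growth and division it was -1.79 for eif3b, 1.52 for hsp90aa1.1, 0.98 for tsc1 and 0.88 for mcm7. In genes of plasma proteins, immune signalling and cell types it was -1.92 for c6.1, -1.14 for f13a1, 0.96 for il6r, -0.94 for cdh5 and -0.92 for hnf4a. The remaining values were -1.71 for epha2, -0.98 for baiap2l2, 1.52 for nt5dc2, -1.22 for rasl12, -1.07 for emilin1, -3.13 for apln, -2.07 for slc40a1, -2.0 for il13ra1, -2.56 for adtrp, -2.07 for magt1, -2.54 for mpp1 and -1.76 for gipc2. Of these 35 differences 23 held in every alternative other than the replicate blocks, 16 with the block over all groups, 14 in both and 34 with the block among the F2 libraries, and the most often lost was that of emilin1, in 18 alternatives. Next were rasl12 (16), slc51a (15), acsbg2 (14), hsp90aa1.1 (12), baiap2l2 (11) and cyp1a1 (8).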

How the results depend on the processing

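The count of 1450 genes between F1 and F2 mixture livers became 753 with a mean of at least 5 FPKM, 509 with only the 10 mixture libraries in the fit, 784 with library weights and 386 without the low-weight libraries, an alternative chosen after the data had been seen. The control count of 5722 became 3146, and that of the difference (2052) 1358, with at least 5 FPKM, where fewer genes are tested. The difference was called for 1365 genes with the erythrocyte covariate, 3864 with weights and 3845 without the low-weight libraries. Leaving out single libraries gave 778 to 1509, 5222 to 5942 and 1382 to 2783 genes for the 3 contrasts. No call of a named gene reversed in the mixture line or in the difference, while 9 control genes were called in the opposite direction with quantile normalization. The cause of these shifts was not tested.

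Library numbers 1 and 4 occur in both mixture groups, and their deviations correlated at -0.19 and -0.24. With the library number as a replicate block over all groups, which these pairs do not bear out, 198 mixture genes and 380 differences were called, and with the length trend also removed 277 and 500. In these fits only F1 mixture 1 and 4 inform the F1 mixture estimate, as the numbers 8, 9 and 13 occur in no other group. With the replicate block among the F2 libraries, where same-numbered samples deviated together, 1772 and 2367 were called. Chosen from those deviations, this block left the estimates nearly unchanged, so calls kept with it are no independent support. Of the named calls it ended 1, the difference of emilin1, and it added pck1, per2 and arntl. Of 94 called genes named here, 47 kept their call in all alternatives other than the blocks, 32 with the block over all groups and 26 in both. Without the low-weight libraries 44 of the 94 calls ended, in the fit of the 10 libraries 25 and with weights 20. The FPKM tables hold no counts, so the precision of single low values is known only from the deposited limits.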

Other observations

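The lists below are to be read beside the 6.06% of all genes that rose and the 8.11% that fell. Of 75 mitochondrial ribosomal proteins 5 rose and 2 fell, and of 45 proteasome genes 0 rose and 1 fell, 2 and 1 with the replicate block among the F2 libraries. Cholesterol genes had 1 fall among 24 and a median of -0.47, below the -0.04 of all genes, with a median of -0.70 in the control line. Immediate early genes had 3 rises and 0 falls among 17 (median 0.62), with 8 rises in the control line. The rises were 0 without F1 mixture 1, 8, 9 or 13 or the low-weight libraries and in the fit of the 10 mixture libraries alone, 1 without F2 mixture 1 or 5, 2 without F1 mixture 4, 4 without F2 mixture 2, 5 without F2 mixture 3 or with quantile normalization and 7 with the replicate block among the F2 libraries. In the urea cycle list the median was 0.49 with 0 calls, and genes of DNA damage and p53 had 3 rises and 1 fall among 25. The DNA damage list had 1 call without F1 mixture 9 and 2 without F1 mixture 8 or 13 or F2 mixture 1 or 5, 2 rises without the low-weight libraries, and the mitochondrial list 1 fall without these, 3 without F1 mixture 1 and 4 without F1 mixture 8 or F2 mixture 2. Of 6 granulocyte markers 0 passed (median -0.60), by limma's adjusted p.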
